A study of Mus musculus with 19 samples.

Results

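The genes described here are 36 mouse genes of the amino acid stress response, the set switched on largely through the transcription factor ATF4 when a cell runs short of amino acids or accumulates unfolded protein. They were chosen by symbol from the genes listed in the deposited counts, 36 of 46983, and fall into 5 roles: 8 regulators, 5 serine and one-carbon enzymes, 5 other amino acid enzymes, 5 transporters and 13 cytosolic tRNA synthetases. All 36 passed the filter on low counts, which left 16763 genes in the tests. Amino acid shortage activates the kinase GCN2, and stress of the endoplasmic reticulum activates PERK; both phosphorylate the initiation factor eIF2α, which slows translation in general and favours translation of the Atf4 mRNA. ATF4 protein then pairs with C/EBP-family partners at composite C/EBP-ATF response elements and raises genes for amino acid synthesis, uptake and tRNA charging. Because ATF4 is controlled mainly at translation, its mRNA level need not follow its activity. In tumours the pathway is known for sustaining growth where nutrients and oxygen are scarce.

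Bulk poly(A) RNA was sequenced in 19 samples of tumours formed in syngeneic BALB/cAnN mice by implanted 4T1 cells, which derive from a mouse mammary carcinoma. The groups were tumours of the 4T1-KD line, in which lactate dehydrogenase A was knocked down (LDHA-KD), given anti-CTLA-4 (n = 5) or control IgG (n = 5), and tumours of the control line 4T1-Sc given anti-CTLA-4 (n = 5) or control IgG (n = 4). Treatment began 3 days after implantation and was given 3 times, 3 days apart; CTLA-4 is an inhibitory receptor of T cells. The labels name 1 knockdown line and 1 control line without saying whether either is a clone, and whether the numbered replicates are different animals is not stated, so p-values here reflect only how these samples vary, which may be technical.

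Between 31783272 and 43266699 reads were counted on genes per library, and 3 counts corresponded to between 0.0698 and 0.0926 CPM. Levels are given as CPM, counts scaled to a common library total after TMM adjustment of that total. Ldha, the targeted gene, averaged 541 ± 38.2 CPM in LDHA-KD tumours with anti-CTLA-4, 485 ± 27.2 CPM in LDHA-KD tumours with IgG, 1914 ± 257 CPM in anti-CTLA-4-treated control tumours and 1600.0 ± 264 CPM in control tumours with IgG (SD). LDHA-KD and control libraries did not overlap for Ldha, whose log2 fold change was -1.82 (SE 0.11) under anti-CTLA-4 and -1.72 (SE 0.11) under IgG. Tests are edgeR quasi-likelihood F tests on the counts of all 19 libraries, and a gene is called higher or lower at a Benjamini-Hochberg adjusted p under 0.05 over all 16763 genes. Replicates 3 and 5 of the anti-CTLA-4 group of each line stood apart from the rest of their groups on a principal component in earlier work on these data, and calls that changed without them are given beside the gene.

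The composite element has the core TGATGNAA, and it was searched on both strands of promoter windows from RefSeq (build GRCm38.p6) that run from 250 bases before to 50 bases after each start. Of the 36 genes, 28 had a window, and 11 of these (39.3%) held the core: Aars, Asns, Chac1, Gars, Iars, Pck2, Pycr1, Slc7a11, Tars, Trib3 and Yars. Over all 27025 genes with windows, 1219 (4.51%) held it. The windows below belong to the 4 members with the core that were called different between LDHA-KD and control tumours and, beside them, to 2 called members without it, Ddit3 and Mthfd2. They are written 5′ to 3′ on the gene's strand, and capitals mark the core, which appears as its reverse complement where it lies on the other strand.
Trib3: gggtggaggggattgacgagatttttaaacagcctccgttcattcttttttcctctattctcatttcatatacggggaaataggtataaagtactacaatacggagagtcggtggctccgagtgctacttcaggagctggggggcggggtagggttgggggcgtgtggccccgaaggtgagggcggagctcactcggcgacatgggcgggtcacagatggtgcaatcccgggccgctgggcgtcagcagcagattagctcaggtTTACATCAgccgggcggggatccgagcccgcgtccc
Slc7a11: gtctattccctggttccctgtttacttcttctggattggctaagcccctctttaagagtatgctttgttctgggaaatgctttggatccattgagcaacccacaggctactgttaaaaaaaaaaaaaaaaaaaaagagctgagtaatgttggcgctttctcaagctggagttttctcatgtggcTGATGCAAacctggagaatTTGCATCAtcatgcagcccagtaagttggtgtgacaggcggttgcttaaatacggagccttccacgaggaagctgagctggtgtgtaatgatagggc
Pck2: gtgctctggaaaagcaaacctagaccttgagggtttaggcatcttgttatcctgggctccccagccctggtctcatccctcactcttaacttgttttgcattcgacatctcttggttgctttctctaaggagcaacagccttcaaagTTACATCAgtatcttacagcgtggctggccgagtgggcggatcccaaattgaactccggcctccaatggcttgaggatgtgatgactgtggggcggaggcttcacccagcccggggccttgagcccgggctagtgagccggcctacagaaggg
Gars: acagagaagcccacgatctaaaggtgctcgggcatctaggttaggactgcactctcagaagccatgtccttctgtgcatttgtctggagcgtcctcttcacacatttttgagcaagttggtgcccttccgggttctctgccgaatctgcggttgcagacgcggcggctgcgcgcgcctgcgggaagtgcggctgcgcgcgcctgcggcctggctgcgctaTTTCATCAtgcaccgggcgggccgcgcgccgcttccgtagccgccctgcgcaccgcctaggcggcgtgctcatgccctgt
Ddit3: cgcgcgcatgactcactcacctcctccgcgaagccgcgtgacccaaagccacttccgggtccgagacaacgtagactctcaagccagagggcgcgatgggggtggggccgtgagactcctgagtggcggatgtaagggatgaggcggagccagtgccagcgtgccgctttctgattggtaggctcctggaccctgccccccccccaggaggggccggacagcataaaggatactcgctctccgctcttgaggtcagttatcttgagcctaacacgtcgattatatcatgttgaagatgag
Mthfd2: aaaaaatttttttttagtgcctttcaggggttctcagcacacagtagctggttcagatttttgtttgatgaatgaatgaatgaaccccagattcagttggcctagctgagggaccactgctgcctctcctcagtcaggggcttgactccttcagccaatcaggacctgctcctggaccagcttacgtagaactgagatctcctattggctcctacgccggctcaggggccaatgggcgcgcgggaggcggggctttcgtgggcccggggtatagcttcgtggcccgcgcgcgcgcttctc
The windows lie at chr2:152344011-152344310, minus strand (Trib3), chr3:50443564-50443863, minus strand (Slc7a11), chr14:55540016-55540315, plus strand (Pck2), chr6:55037751-55038050, plus strand (Gars), chr10:127290543-127290842, plus strand (Ddit3) and chr6:83317555-83317854, minus strand (Mthfd2). Slc7a11 has a pair of cores facing opposite ways, at -66 and -47 from the start. The Trib3 core lies at 15 from the RefSeq start, but before the start that GENCODE M21 gives for the gene. A missing match says only that these letters are not in this window.

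Among the 13 sites in the 11 windows, the core read TGATGCAA in 8, TGATGAAA in 3 and TGATGTAA in 2. The sites with TGATGTAA belong to Pck2 and Trib3, and the others shown here give the commoner forms, each written 5′ to 3′ in the direction of the core, in capitals, with the neighbouring bases.
Asns: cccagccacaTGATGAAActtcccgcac
Chac1: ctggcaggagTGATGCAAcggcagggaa
Gars: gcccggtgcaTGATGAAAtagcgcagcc
Pck2: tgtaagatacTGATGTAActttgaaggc
Pycr1: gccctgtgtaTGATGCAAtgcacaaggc
Trib3: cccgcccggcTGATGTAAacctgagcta
Yars: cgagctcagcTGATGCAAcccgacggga
The other promoter letters searched were in fewer of the members' windows than the core was. The E-box CACGTG, which MYC and other bHLH factors bind, was found for 4 of the 28 members with a window (14.3%), against 8.09% of all genes. These were Aars, Aldh18a1, Iars and Tars. The endoplasmic reticulum stress element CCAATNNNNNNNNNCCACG was found for 0 of the 28, against 0.137% of all genes. Under anti-CTLA-4, 1 of the 11 genes with the core was higher and 3 were lower in LDHA-KD tumours, and of the 17 genes with a window but no core 2 were higher and 4 lower. Under IgG the counts were 0 higher and 3 lower of 11 with the core, and 0 higher and 6 lower of 17 without it. Over all genes tested, 20.2% were higher and 19.8% lower under anti-CTLA-4, and 16.8% higher and 17.5% lower under IgG.

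In LDHA-KD tumours a minority of the amino acid stress genes was called at lower mRNA levels than in control tumours, most of them modestly. Estimates, called or not, were below 0 for 25 of the 36 members under anti-CTLA-4 and 28 of 36 under IgG. The median over all genes tested was 0.01 under anti-CTLA-4 and -0.00 under IgG. Without scaling factors these medians were 0.10 and 0.07, so counts by sign depend on the scaling. The largest decrease was that of Trib3, the stress-induced pseudokinase. With it fell the serine synthesis enzymes Psat1 and Psph, the mitochondrial carboxykinase Pck2 and the synthetases Cars, Gars and Vars, each under both antibodies. Slc7a11, the cystine importer, was called higher under anti-CTLA-4 and missed the threshold under IgG. Asns, the asparagine synthetase widely used as an ATF4 reporter, did not pass the test.

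Under anti-CTLA-4, 3 of the 36 members were higher in LDHA-KD than in control tumours and 9 were lower, against 20.2% of all genes tested called higher and 19.8% called lower. Under IgG, 0 members were higher and 11 were lower, against 16.8% of all genes higher and 17.5% lower. By role, under anti-CTLA-4, 1 of 8 regulators was higher and 3 lower, 1 of 5 serine and one-carbon enzymes higher and 2 lower, 0 of 5 other amino acid enzymes higher and 1 lower, 1 of 5 transporters higher and 0 lower, and 0 of 13 synthetases higher and 3 lower. Under IgG none of these roles had a member called higher by edgeR, and the members called lower were 2 regulators, 3 serine and one-carbon enzymes, 2 other amino acid enzymes, 1 transporter and 3 synthetases. The median log2 fold change of the 36 was -0.11 under anti-CTLA-4 and -0.19 under IgG, beside 0.01 and -0.00 over all genes tested. The share of members called lower was above the background under IgG and near it under anti-CTLA-4, and the share called higher was below it in both; these are counts, with no test of the set. At an unadjusted p under 0.05 there were 17 of 36 members under anti-CTLA-4, beside 8197 of all 16763 genes, and 18 of 36 under IgG, beside 7348, which are shares near the background. With no scaling factors, which moves the median of all genes to 0.10 and 0.07, 4 members were higher and 6 lower under anti-CTLA-4, and 1 was higher and 7 lower under IgG. The IgG count fell to 5 without control IgG replicate 1 and to 7 without control IgG replicate 3.

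The members called lower under both antibodies numbered 7: Trib3, Psat1, Psph, Pck2, Cars, Gars and Vars. Over all genes tested, 19.8% were called lower under anti-CTLA-4 and 17.5% under IgG. The shares of all genes called in both comparisons, in 1 alone or in neither were not counted. The counts of members given here therefore have no background beside them. Atf4 and Ddit3 were called lower under anti-CTLA-4 alone, Cebpg, Shmt2 and Slc7a11 higher under anti-CTLA-4 alone, and Atf5, Mthfd2, Aldh18a1 and Slc38a2 lower under IgG alone. No member was called in opposite directions. A call under 1 antibody and not the other is not a difference between them: the test of that difference, the interaction, called 0 members by edgeR (0 at an unadjusted p under 0.05, smallest adjusted p 0.9998; 0 by DESeq2). The remaining 20 members were called in neither comparison.

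**Figure D1:**
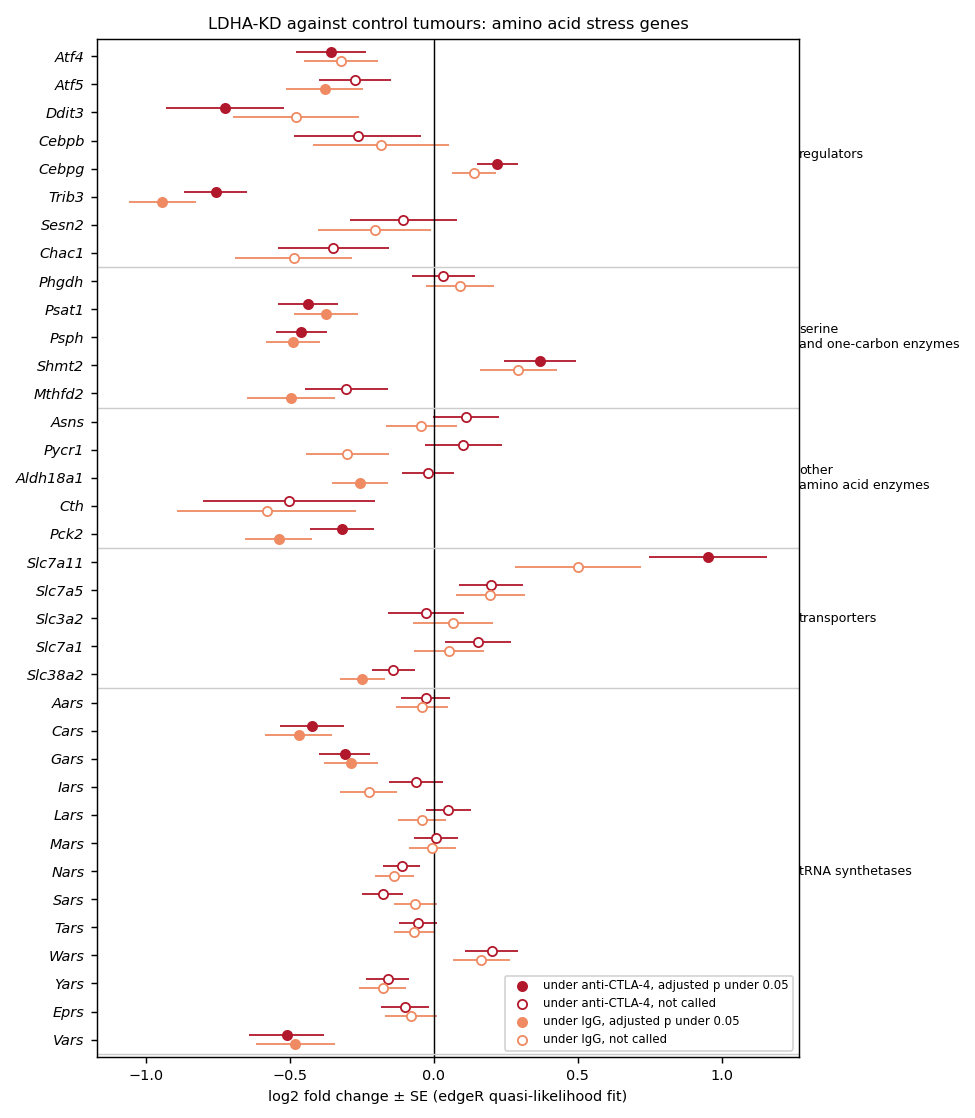
Log2 fold change of each of the 36 members in LDHA-KD against control tumours (x axis, bars show SE) under anti-CTLA-4 (dark) and under IgG (light), grouped by role down the page; filled points have an adjusted p under 0.05. Trib3 lies farthest to the left, at -0.76 and -0.94, and Slc7a11 farthest to the right, at 0.95 and 0.50.

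Markers of several cell types differed between the lines, and in bulk tissue fewer cells of a type and less RNA per cell cannot be told apart. The summed level of 11 epithelial tumour cell markers was 2899 ± 570.2 CPM in anti-CTLA-4-treated LDHA-KD tumours, 3419.6 ± 128 CPM in IgG-treated LDHA-KD tumours, 4541 ± 292 CPM in anti-CTLA-4-treated control tumours and 4714 ± 503 CPM in IgG-treated control tumours (SD); 8 of the 11 were lower and 1, Cldn7, higher under anti-CTLA-4, and 4 were lower and 1 higher under IgG. T cell markers, 8 genes, were higher in all 8 cases in both comparisons, and summed to 110.2 ± 27.01 CPM in anti-CTLA-4-treated LDHA-KD tumours, 74.97 ± 11.3 CPM in IgG-treated LDHA-KD tumours, 41.5 ± 10.7 CPM in anti-CTLA-4-treated control tumours and 20.995 ± 6.40 CPM in IgG-treated control tumours. Of 9 macrophage markers, 9 were higher under anti-CTLA-4 and 8 under IgG, and they summed to 3639 ± 181 CPM in anti-CTLA-4-treated LDHA-KD tumours, 3564 ± 139 CPM in IgG-treated LDHA-KD tumours, 1891 ± 213 CPM in anti-CTLA-4-treated control tumours and 1964 ± 456 CPM in IgG-treated control tumours. Of 12 hypoxia response genes, 10 were lower under anti-CTLA-4 and 8 under IgG, with sums of 2915 ± 517 CPM in anti-CTLA-4-treated LDHA-KD tumours, 2099.6 ± 213 CPM in IgG-treated LDHA-KD tumours, 5138 ± 1331 CPM in anti-CTLA-4-treated control tumours and 3555 ± 1175 CPM in IgG-treated control tumours. All 5 endothelial markers were lower under IgG and 2 of 5 under anti-CTLA-4; of 7 fibroblast markers 3 were higher and 0 lower under anti-CTLA-4, and 1 was higher and 3 lower under IgG; of 6 neutrophil markers 0 were called under anti-CTLA-4 and 1 was higher under IgG. No marker was at 0 in any library. The part of these markers and of the hypoxia genes in the members' differences was not tested.

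The regulators were led by Trib3, a pseudokinase that ATF4 and CHOP induce and that binds AKT and ATF4. Trib3 levels in LDHA-KD tumours were 20.97, 20.1, 22.5, 15.4 and 23.6 CPM with anti-CTLA-4 and 20.9, 20.7, 22.7, 20.7 and 19.8 CPM with IgG. Control tumours had Trib3 at 40.5, 33.7, 36.01, 32.9 and 30.5 CPM with anti-CTLA-4 and 49.98, 38.9, 35.4 and 36.9 CPM with IgG. Every LDHA-KD library lay below every control library under either antibody. Trib3 was lower under anti-CTLA-4 (1.69-fold lower, log2 fold change -0.76, SE 0.11, adjusted p = 3.08e-05) and under IgG (1.92-fold lower, log2 fold change -0.94, SE 0.12, adjusted p = 5.34e-06). It is one of the genes whose windows, shown above, hold the element's core.

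Atf4 itself encodes the transcription factor of the pathway (chr15:80255184-80257541, plus strand, GRCm38). Atf4 levels in LDHA-KD tumours were 242, 206, 244, 205 and 259.7 CPM with anti-CTLA-4 and 211, 195, 209.6, 221 and 212 CPM with IgG. Control tumours had Atf4 at 339, 231, 318, 279 and 315 CPM with anti-CTLA-4 and 356, 246, 225 and 222 CPM with IgG. Under IgG all LDHA-KD libraries lay below all control libraries, of which replicate 1 was far the highest, while under anti-CTLA-4 control replicate 2 lay among the LDHA-KD libraries. Atf4 mRNA was lower under anti-CTLA-4 (1.28-fold lower, log2 fold change -0.36, SE 0.12, adjusted p = 0.0249). Under IgG the estimate was of like size but missed the threshold (log2 fold change -0.32, SE 0.13, adjusted p = 0.0584). Atf4 was called lower under IgG by DESeq2 (adjusted p = 0.0449) and in edgeR fits without replicate 2 of the control anti-CTLA-4 group (0.0405) or replicate 4 (0.0350) or 5 (0.0328) of the control IgG group. The call under anti-CTLA-4 was lost with library totals (adjusted p = 0.0707), without LDHA-KD anti-CTLA-4 replicate 2 or 4 or control anti-CTLA-4 replicate 1, 3 or 5 (adjusted p 0.0543 to 0.0662), and without the 4 libraries that stand apart (log2 fold change -0.38, adjusted p = 0.101).

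Ddit3 encodes CHOP, the C/EBP-family factor linked to cell death under prolonged stress. For Ddit3, the LDHA-KD libraries gave 20.7, 20.4, 30.6, 22.2 and 31.9 CPM with anti-CTLA-4 and 20.6, 15.7, 22.8, 18.7 and 22.5 CPM with IgG. Among control libraries, Ddit3 stood at 57.4, 27.9, 44.2, 36.6 and 41.99 CPM with anti-CTLA-4 and 40.3, 28.3, 26.4 and 16.9 CPM with IgG. LDHA-KD replicates 3 and 5 were the only LDHA-KD libraries under anti-CTLA-4 above the lowest control library, and under IgG control replicate 5 was as low as the LDHA-KD libraries. Ddit3 was lower under anti-CTLA-4 (1.65-fold lower, log2 fold change -0.73, SE 0.21, adjusted p = 0.00873) and was not called under IgG (log2 fold change -0.48, SE 0.22, adjusted p = 0.0974). Without the 4 libraries that stand apart, the log2 fold change of Ddit3 under anti-CTLA-4 was -0.94 (adjusted p = 0.0159), and without control IgG replicate 5 Ddit3 was called lower under IgG (log2 fold change -0.66, adjusted p = 0.0207). Ddit3 overlaps Mars on the opposite strand, and the strand setting of the counting was not given, so reads in the overlap cannot be assigned from these counts.

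Chac1, which degrades glutathione and is a target of the ATF4 and CHOP branch, was not called in either comparison. Chac1 levels in LDHA-KD tumours were 11.5, 11.2, 13.5, 6.91 and 14.96 CPM with anti-CTLA-4 and 9.44, 8.72, 14.2, 13.8 and 9.91 CPM with IgG. Control tumours had Chac1 at 15.4, 15.99, 19.4, 11.3 and 11.7 CPM with anti-CTLA-4 and 13.8, 19.04, 15.9 and 14.1 CPM with IgG. The groups overlapped under both antibodies, with LDHA-KD anti-CTLA-4 replicate 4 the lowest library of all. Its log2 fold change was -0.35 (95% interval -0.76 to 0.06, adjusted p = 0.159) under anti-CTLA-4 and -0.49 (95% interval -0.92 to -0.05, adjusted p = 0.0727) under IgG. Chac1 was called lower under IgG in 4 alternatives: without the 4 libraries that stand apart (adjusted p = 0.0472), with only the groups compared (0.0381), without replicate 4 of the LDHA-KD anti-CTLA-4 group (0.0403) and without replicate 3 of the LDHA-KD IgG group (0.0435).

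Atf5, a relative of ATF4 that is likewise translated under stress, was called lower under IgG alone. For Atf5, the LDHA-KD libraries gave 77.1, 67.02, 86.6, 67.7 and 91.3 CPM with anti-CTLA-4 and 52.7, 49.5, 53.7, 69.2 and 54.2 CPM with IgG. Among control libraries, Atf5 stood at 111, 82.7, 105, 80.2 and 92.8 CPM with anti-CTLA-4 and 86.3, 74.8, 73.6 and 55.7 CPM with IgG. Under IgG only LDHA-KD replicate 4 lay above the lowest control library, and under anti-CTLA-4 LDHA-KD replicates 3 and 5 lay among the controls. Atf5 was lower under IgG (1.30-fold lower, log2 fold change -0.38, SE 0.13, adjusted p = 0.0325) and was not called under anti-CTLA-4 (log2 fold change -0.27, SE 0.12, adjusted p = 0.0871). The IgG call was lost without LDHA-KD IgG replicate 1, 2, 3 or 5 or control IgG replicate 1, 3 or 4 (adjusted p 0.0603 to 0.134) and with library totals (0.0783). Nup62 and Il4i1 overlap Atf5 on the other strand.

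Cebpg, a C/EBP protein that pairs with ATF4, was called higher under anti-CTLA-4. Cebpg levels in LDHA-KD tumours were 102, 102, 98.2, 92.9 and 89.8 CPM with anti-CTLA-4 and 83.8, 87.9, 87.9, 107 and 89.6 CPM with IgG. Control tumours had Cebpg at 81.4, 86.3, 73.8, 87.4 and 87.4 CPM with anti-CTLA-4 and 85.6, 80.4, 75.97 and 89.1 CPM with IgG. Under anti-CTLA-4 every LDHA-KD library exceeded every control library, by a small margin, and under IgG the groups overlapped. Cebpg was higher under anti-CTLA-4 (1.17-fold higher, log2 fold change 0.22, SE 0.07, adjusted p = 0.0200) and was not called under IgG (log2 fold change 0.14, SE 0.08, adjusted p = 0.169). The adjusted p of Cebpg was 0.0591 when replicate 3 of the control anti-CTLA-4 group was left out, and 0.0918 without the 4 libraries that stand apart; with library totals Cebpg was called higher under IgG (0.0321). Of the other regulators, Cebpb, a C/EBP factor that also binds the element, averaged 29.5 ± 9.31 CPM in LDHA-KD tumours with anti-CTLA-4, 21.4 ± 2.17 CPM in LDHA-KD tumours with IgG, 35.5 ± 11.6 CPM in anti-CTLA-4-treated control tumours and 24.3 ± 5.65 CPM in control tumours with IgG (SD). Sesn2, a leucine sensor that restrains mTORC1, averaged 13.4 ± 3.87 CPM in LDHA-KD tumours with anti-CTLA-4, 10.2 ± 1.29 CPM in LDHA-KD tumours with IgG, 14.4 ± 3.19 CPM in anti-CTLA-4-treated control tumours and 11.8 ± 2.67 CPM in control tumours with IgG (SD). Neither was called in either comparison; their log2 fold changes were between -0.26 and -0.11.

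**Figure D2:**
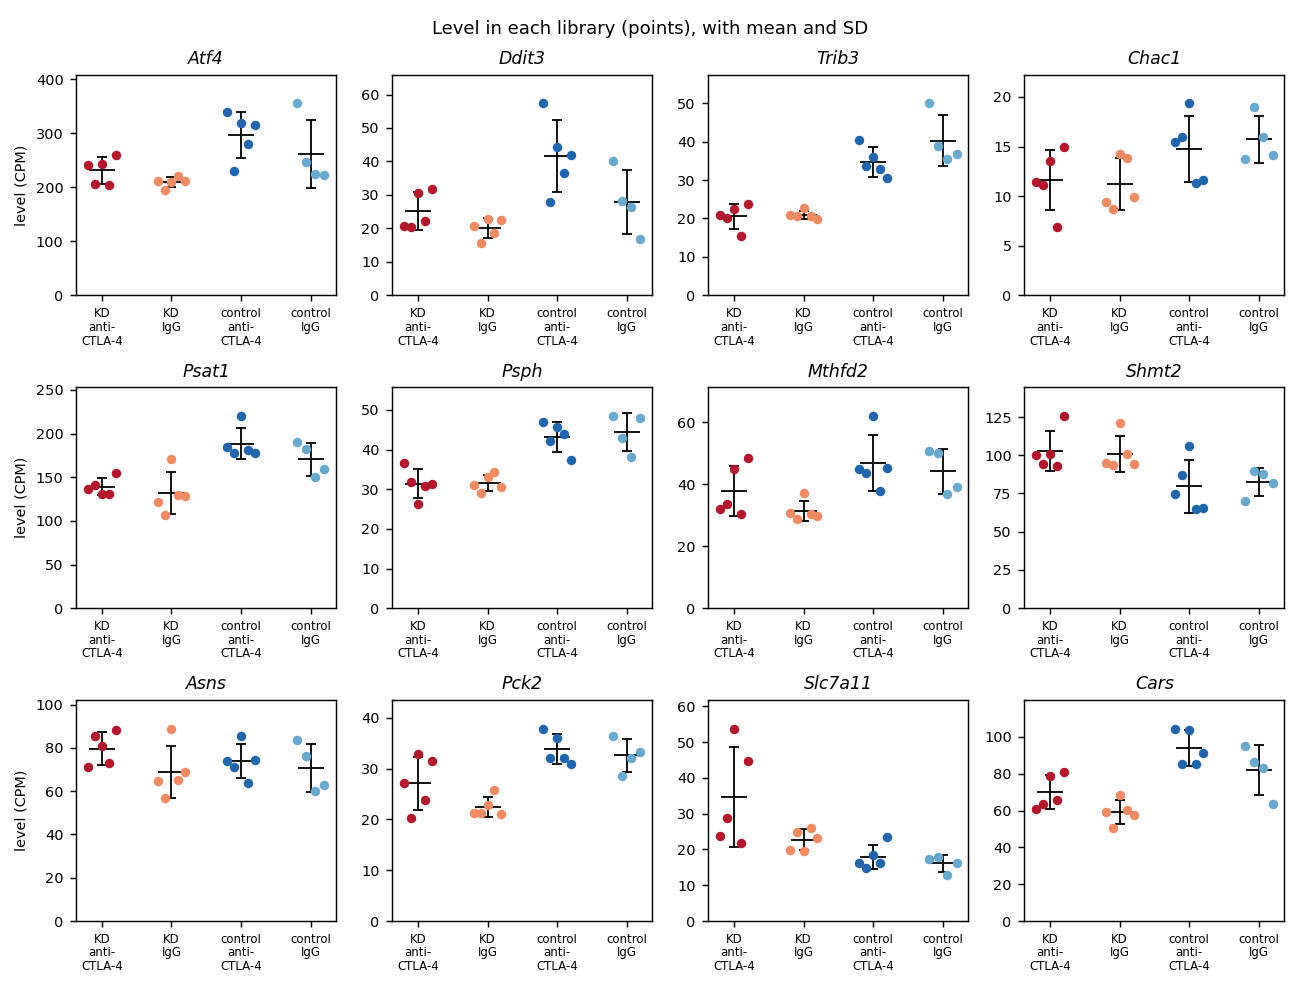
Level of 12 members in CPM (y axis, from 0) in each library (points), with the group mean and SD (black), for LDHA-KD tumours with anti-CTLA-4 and IgG and control tumours with anti-CTLA-4 and IgG (left to right). Trib3 and Psph separate the lines under both antibodies, Slc7a11 is spread most among LDHA-KD tumours with anti-CTLA-4 (21.9 to 53.7 CPM), and Asns overlaps throughout.

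Serine is made from a glycolytic intermediate by Phgdh, Psat1 and Psph in turn, and Shmt2 and Mthfd2 pass its carbon into the mitochondrial folate cycle. Psat1, the aminotransferase of the middle step, was lower under both antibodies. Psat1 levels in LDHA-KD tumours were 137, 142, 131, 131 and 155 CPM with anti-CTLA-4 and 122, 106, 171, 129.6 and 129 CPM with IgG. Control tumours had Psat1 at 185, 178, 219.9, 181 and 178 CPM with anti-CTLA-4 and 190.3, 182, 150.4 and 159 CPM with IgG. Under anti-CTLA-4 the groups did not overlap; under IgG LDHA-KD replicate 3 lay among the controls. Psat1 differed under anti-CTLA-4 (1.35-fold lower, log2 fold change -0.44, SE 0.10, adjusted p = 0.00270) and under IgG (1.30-fold lower, log2 fold change -0.37, SE 0.11, adjusted p = 0.0128). Without control IgG replicate 1 the adjusted p under IgG was 0.0536.

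Psph, the phosphatase of the last step, was lower as well. For Psph, the LDHA-KD libraries gave 36.7, 31.9, 26.3, 30.8 and 31.3 CPM with anti-CTLA-4 and 31.1, 29.1, 33.1, 34.3 and 30.6 CPM with IgG. Among control libraries, Psph stood at 47.02, 42.1, 45.7, 43.8 and 37.3 CPM with anti-CTLA-4 and 48.4, 43.002, 38.1 and 48.04 CPM with IgG. LDHA-KD and control libraries did not overlap under either antibody. Psph was lower under anti-CTLA-4 (1.38-fold lower, log2 fold change -0.46, SE 0.09, adjusted p = 0.000445) and under IgG (1.40-fold lower, log2 fold change -0.49, SE 0.09, adjusted p = 0.000481). Cct6a overlaps Psph on the other strand. Phgdh, the first and committed step, was called in neither comparison; it averaged 67.7 ± 9.70 CPM in LDHA-KD tumours with anti-CTLA-4, 67.4 ± 7.24 CPM in LDHA-KD tumours with IgG, 66.2 ± 8.31 CPM in anti-CTLA-4-treated control tumours and 63.3 ± 7.98 CPM in control tumours with IgG (SD), and its log2 fold change was 0.03 (95% interval -0.20 to 0.27) under anti-CTLA-4 and 0.09 (95% interval -0.16 to 0.34) under IgG.

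Shmt2, which splits serine into glycine and a folate-bound carbon, was called higher under anti-CTLA-4. Shmt2 levels in LDHA-KD tumours were 100, 94.3, 101, 92.98 and 126 CPM with anti-CTLA-4 and 95.01, 93.9, 121, 101 and 94.1 CPM with IgG. Control tumours had Shmt2 at 74.4, 87.2, 106, 64.8 and 65.8 CPM with anti-CTLA-4 and 69.98, 90.01, 87.8 and 81.7 CPM with IgG. Under IgG all LDHA-KD libraries exceeded all control libraries; under anti-CTLA-4 control replicate 3 exceeded all LDHA-KD libraries but replicate 5. Shmt2 was called higher under anti-CTLA-4 (1.29-fold higher, log2 fold change 0.37, SE 0.12, adjusted p = 0.0249) and not under IgG (log2 fold change 0.29, SE 0.13, adjusted p = 0.0950). The call was lost without LDHA-KD anti-CTLA-4 replicate 5 or control anti-CTLA-4 replicate 1, 4 or 5 (adjusted p 0.0631 to 0.0805), and without the 4 libraries that stand apart the adjusted p was 0.0501 under anti-CTLA-4 and 0.0325 under IgG. With only the groups compared, it was 0.0607 under anti-CTLA-4 and 0.0359 under IgG, and Shmt2 was also called under IgG without replicate 3 of the control anti-CTLA-4 group (0.0497). Ndufa4l2 overlaps Shmt2 on the other strand.

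Mthfd2, the next enzyme of the mitochondrial folate cycle and, like Shmt2, one often raised in tumours, was called lower under IgG. For Mthfd2, the LDHA-KD libraries gave 31.99, 33.6, 44.9, 30.5 and 48.4 CPM with anti-CTLA-4 and 30.6, 28.8, 37.2, 30.5 and 29.9 CPM with IgG. Among control libraries, Mthfd2 stood at 44.9, 43.6, 61.96, 37.8 and 45.3 CPM with anti-CTLA-4 and 50.9, 50.1, 36.9 and 39.1 CPM with IgG. Under IgG LDHA-KD replicate 3 alone reached the lowest control library, and under anti-CTLA-4 LDHA-KD replicates 3 and 5 lay among the controls. Mthfd2 was lower under IgG (1.41-fold lower, log2 fold change -0.50, SE 0.15, adjusted p = 0.0166) and was not called under anti-CTLA-4 (log2 fold change -0.30, SE 0.14, adjusted p = 0.1001). Under IgG the adjusted p was 0.0633 without control IgG replicate 1 and 0.0571 without control IgG replicate 3, and without the 4 libraries that stand apart Mthfd2 was lower under anti-CTLA-4 as well (log2 fold change -0.39, adjusted p = 0.0332), as it was without replicate 5 of the LDHA-KD anti-CTLA-4 group (0.0344).

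Among the other amino acid enzymes, Asns, which makes asparagine from aspartate and glutamine, kept overlapping levels. Asns levels in LDHA-KD tumours were 71.01, 85.5, 80.6, 72.9 and 88.3 CPM with anti-CTLA-4 and 64.5, 56.7, 88.7, 64.9 and 68.97 CPM with IgG. Control tumours had Asns at 74.1, 71.1, 85.5, 63.8 and 74.2 CPM with anti-CTLA-4 and 83.8, 76.4, 60.2 and 62.8 CPM with IgG. The groups lay across each other under both antibodies. The log2 fold change of Asns was 0.11 (95% interval -0.13 to 0.36, adjusted p = 0.461) under anti-CTLA-4 and -0.04 (95% interval -0.30 to 0.22, adjusted p = 0.818) under IgG. These intervals leave room for changes of either sign, and they exclude a decrease as large as the estimates for Trib3.

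Pck2, the mitochondrial phosphoenolpyruvate carboxykinase, lets cells short of glucose feed carbon into the upper pathway, including toward serine. For Pck2, the LDHA-KD libraries gave 27.2, 20.4, 32.8, 23.7 and 31.4 CPM with anti-CTLA-4 and 21.3, 21.3, 22.8, 25.7 and 21.1 CPM with IgG. Among control libraries, Pck2 stood at 37.8, 32.2, 35.99, 32.02 and 30.9 CPM with anti-CTLA-4 and 36.4, 28.6, 32.2 and 33.2 CPM with IgG. Under IgG every LDHA-KD library was below every control library, and under anti-CTLA-4 LDHA-KD replicates 3 and 5 reached the controls. Pck2 was lower under anti-CTLA-4 (1.25-fold lower, log2 fold change -0.32, SE 0.11, adjusted p = 0.0275) and under IgG (1.45-fold lower, log2 fold change -0.54, SE 0.12, adjusted p = 0.00146). The anti-CTLA-4 call was lost without LDHA-KD anti-CTLA-4 replicate 2 or 4 or control anti-CTLA-4 replicate 1 or 3 (adjusted p 0.0592 to 0.0764); without the 4 libraries that stand apart the log2 fold change was -0.52 (adjusted p = 0.00532). It was also lost with only the groups compared (0.0624) and with library totals (0.131).

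Aldh18a1, which opens proline synthesis from glutamate, was the weakest call. Aldh18a1 levels in LDHA-KD tumours were 58.5, 62.5, 80.7, 64.7 and 82.99 CPM with anti-CTLA-4 and 56.8, 57.3, 64.4, 59.4 and 56.5 CPM with IgG. Control tumours had Aldh18a1 at 68.4, 74.7, 76.2, 68.8 and 66.1 CPM with anti-CTLA-4 and 66.4, 79.1, 73.1 and 62.7 CPM with IgG. Under IgG LDHA-KD replicate 3 reached past control replicate 5, and under anti-CTLA-4 the LDHA-KD libraries spread to both sides of the controls. Aldh18a1 was lower under IgG (1.19-fold lower, log2 fold change -0.26, SE 0.10, adjusted p = 0.0479) and was not called under anti-CTLA-4 (log2 fold change -0.02, SE 0.09, adjusted p = 0.880). The IgG call was lost when any of 13 of the 19 libraries was left out (LDHA-KD anti-CTLA-4 replicate 4, LDHA-KD IgG replicates 1, 2, 4 and 5, all 5 control anti-CTLA-4 replicates, and control IgG replicates 1, 3 and 4), and also by limma voom (adjusted p = 0.0535), with no filter on low counts (0.0826) and with library totals (0.209). Pycr1, the last proline enzyme, averaged 5.32 ± 1.11 CPM in LDHA-KD tumours with anti-CTLA-4, 4.04 ± 0.380 CPM in LDHA-KD tumours with IgG, 4.95 ± 0.757 CPM in anti-CTLA-4-treated control tumours and 4.97 ± 0.213 CPM in control tumours with IgG (SD). Its LDHA-KD and control libraries did not overlap under IgG, where the log2 fold change was -0.30 (adjusted p = 0.116), and under anti-CTLA-4 it was 0.10 (adjusted p = 0.569). Cth, which makes cysteine from cystathionine, averaged 5.07 ± 2.22 CPM in LDHA-KD tumours with anti-CTLA-4, 7.27 ± 2.26 CPM in LDHA-KD tumours with IgG, 7.20 ± 1.60 CPM in anti-CTLA-4-treated control tumours and 10.9 ± 4.60 CPM in control tumours with IgG (SD), with log2 fold changes of -0.50 (adjusted p = 0.187) under anti-CTLA-4 and -0.58 (adjusted p = 0.160) under IgG; without replicate 1 of the LDHA-KD anti-CTLA-4 group Cth was called lower under anti-CTLA-4 (-0.76, adjusted p = 0.0443).

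Of the transporters, Slc7a11, the cystine and glutamate exchanger that supplies cysteine for glutathione and that NRF2 also controls, showed the largest increase of any member. Slc7a11 levels in LDHA-KD tumours were 23.9, 28.7, 53.7, 21.9 and 44.9 CPM with anti-CTLA-4 and 19.9, 24.9, 19.6, 26.1 and 23.4 CPM with IgG. Control tumours had Slc7a11 at 16.2, 14.96, 18.5, 16.3 and 23.4 CPM with anti-CTLA-4 and 17.4, 18.02, 12.7 and 16.3 CPM with IgG. LDHA-KD anti-CTLA-4 replicates 3 and 5 were far the highest libraries. Under IgG all LDHA-KD libraries exceeded all control libraries, and under anti-CTLA-4 the sole overlap was LDHA-KD replicate 4 below control replicate 5. Slc7a11 was higher under anti-CTLA-4 (1.94-fold higher, log2 fold change 0.95, SE 0.20, adjusted p = 0.00116) and missed the threshold under IgG (log2 fold change 0.50, SE 0.22, adjusted p = 0.0843). Without the 4 libraries that stand apart the log2 fold change was 0.65 under anti-CTLA-4 (adjusted p = 0.00382) and 0.50 under IgG (adjusted p = 0.00393), so Slc7a11 was then called in both. It was called under IgG as well with only the groups compared (adjusted p = 0.00815) and without replicate 3 of the LDHA-KD anti-CTLA-4 group (0.0405).

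Slc38a2 encodes SNAT2, a carrier of small neutral amino acids that amino acid shortage induces. For Slc38a2, the LDHA-KD libraries gave 288, 330.4, 324, 257 and 299 CPM with anti-CTLA-4 and 278, 275, 317, 276 and 291 CPM with IgG. Among control libraries, Slc38a2 stood at 357, 304, 310.0, 358 and 325 CPM with anti-CTLA-4 and 364, 333, 333 and 336 CPM with IgG. Under IgG every LDHA-KD library lay below every control library, and under anti-CTLA-4 the groups overlapped. Slc38a2 was lower under IgG (1.19-fold lower, log2 fold change -0.25, SE 0.08, adjusted p = 0.0187) and was not called under anti-CTLA-4 (log2 fold change -0.14, SE 0.07, adjusted p = 0.138). Without control IgG replicate 1, the highest control library, the adjusted p was 0.0580, and with library totals it was 0.0682.

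The other transporters were called in neither comparison. Slc7a5 and Slc3a2, which together form the large neutral amino acid carrier LAT1, were both well expressed. Slc7a5 averaged 99.8 ± 14.2 CPM in LDHA-KD tumours with anti-CTLA-4, 94.4 ± 12.4 CPM in LDHA-KD tumours with IgG, 86.97 ± 12.7 CPM in anti-CTLA-4-treated control tumours and 82.4 ± 8.18 CPM in control tumours with IgG (SD), and its log2 fold changes were 0.20 (adjusted p = 0.168) under anti-CTLA-4 and 0.20 (adjusted p = 0.220) under IgG. Slc3a2, which is also the heavy chain of the Slc7a11 exchanger, averaged 150.4 ± 28.5 CPM in LDHA-KD tumours with anti-CTLA-4, 145 ± 30.3 CPM in LDHA-KD tumours with IgG, 153 ± 15.7 CPM in anti-CTLA-4-treated control tumours and 138 ± 11.4 CPM in control tumours with IgG (SD), with -0.03 (adjusted p = 0.883) and 0.07 (adjusted p = 0.753). Slc7a1, a carrier of arginine and lysine, averaged 113 ± 12.8 CPM in LDHA-KD tumours with anti-CTLA-4, 101 ± 13.03 CPM in LDHA-KD tumours with IgG, 102 ± 9.45 CPM in anti-CTLA-4-treated control tumours and 97.9 ± 19.4 CPM in control tumours with IgG (SD), with 0.15 (adjusted p = 0.298) and 0.05 (adjusted p = 0.777).

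The tRNA synthetases, which join each amino acid to its tRNA, are a broad class of ATF4 targets. In LDHA-KD tumours 3 of the 13 were lower, the same 3 in each comparison: Cars, Gars and Vars. Over all genes tested, 19.8% were lower under anti-CTLA-4 and 17.5% under IgG, so the count is near the background. Cars charges tRNA with cysteine. Cars levels in LDHA-KD tumours were 60.8, 63.7, 79.04, 65.7 and 81.2 CPM with anti-CTLA-4 and 59.003, 50.4, 68.7, 60.6 and 57.4 CPM with IgG. Control tumours had Cars at 104, 85.3, 104, 85.1 and 91.2 CPM with anti-CTLA-4 and 95.1, 86.5, 82.9 and 63.4 CPM with IgG. Under anti-CTLA-4 the groups did not overlap, and under IgG LDHA-KD replicate 3 passed control replicate 5. Cars was lower under anti-CTLA-4 (1.34-fold lower, log2 fold change -0.42, SE 0.11, adjusted p = 0.00511) and under IgG (1.39-fold lower, log2 fold change -0.47, SE 0.12, adjusted p = 0.00419).

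Gars, the glycine enzyme, was among the members with the core in its window. For Gars, the LDHA-KD libraries gave 164, 159, 169, 143 and 188 CPM with anti-CTLA-4 and 141, 143, 181, 154 and 143 CPM with IgG. Among control libraries, Gars stood at 213, 180.2, 232, 198 and 197 CPM with anti-CTLA-4 and 207, 192, 175 and 171 CPM with IgG. A single library in each LDHA-KD group, replicate 5 with anti-CTLA-4 and replicate 3 with IgG, lay among the controls. Gars was lower under anti-CTLA-4 (1.24-fold lower, log2 fold change -0.31, SE 0.09, adjusted p = 0.00920) and under IgG (1.22-fold lower, log2 fold change -0.29, SE 0.09, adjusted p = 0.0224). Under IgG the call was lost without LDHA-KD IgG replicate 1, 2 or 5 or control IgG replicate 1 or 3 (adjusted p 0.0540 to 0.0849), and with library totals it was lost under both (0.0581 under anti-CTLA-4 and 0.0781 under IgG).

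Vars, the valine enzyme, had control libraries spread more widely than the LDHA-KD ones. Vars levels in LDHA-KD tumours were 142, 149.9, 154, 137 and 173 CPM with anti-CTLA-4 and 142, 151, 164, 150.3 and 145 CPM with IgG. Control tumours had Vars at 214, 239, 274, 182 and 168 CPM with anti-CTLA-4 and 160.4, 240.1, 257 and 182 CPM with IgG. The LDHA-KD libraries stayed between 137 and 173 CPM, and the lowest control library of each pair of groups lay inside that range. Vars was lower under anti-CTLA-4 (1.42-fold lower, log2 fold change -0.51, SE 0.13, adjusted p = 0.00425) and under IgG (1.40-fold lower, log2 fold change -0.48, SE 0.14, adjusted p = 0.0104). Without control IgG replicate 4 the adjusted p under IgG was 0.0511.

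The other 10 synthetases were called in neither comparison by edgeR with all 19 libraries. Their log2 fold changes ran between -0.18 and 0.20 under anti-CTLA-4 and between -0.23 and 0.16 under IgG. Sars, the serine enzyme, came nearest under anti-CTLA-4, at -0.18 (adjusted p = 0.0522), and stood at -0.07 (adjusted p = 0.537) under IgG. Sars was called lower under anti-CTLA-4 by DESeq2 (adjusted p = 0.0332) and in 5 edgeR fits that each left out 1 library (0.0397 to 0.0484). Iars, for isoleucine, was at -0.06 (adjusted p = 0.622) and -0.23 (adjusted p = 0.0856), Yars, for tyrosine, at -0.16 (adjusted p = 0.0983) and -0.18 (adjusted p = 0.0944), and Nars, for asparagine, at -0.11 (adjusted p = 0.175) and -0.14 (adjusted p = 0.129) under anti-CTLA-4 and under IgG. Iars was called lower under IgG without replicate 3 of the LDHA-KD IgG group (adjusted p = 0.03999). Without the 4 libraries that stand apart Yars was called lower under anti-CTLA-4 (0.0480) and under IgG (0.0495), and under anti-CTLA-4 also without replicate 5 of the LDHA-KD group (0.0322). Wars, for tryptophan, which interferon-gamma also induces, had positive estimates of 0.20 (adjusted p = 0.0939) and 0.16 (adjusted p = 0.215), and was called higher under anti-CTLA-4 with library totals (0.0374) and without control replicate 2 (0.0419). Aars, for alanine, averaged 226 ± 20.8 CPM in LDHA-KD tumours with anti-CTLA-4, 207 ± 18.4 CPM in LDHA-KD tumours with IgG, 230.1 ± 20.8 CPM in anti-CTLA-4-treated control tumours and 213 ± 22.2 CPM in control tumours with IgG (SD). Eprs, the fused glutamate and proline enzyme, averaged 255 ± 30.4 CPM in LDHA-KD tumours with anti-CTLA-4, 277 ± 17.8 CPM in LDHA-KD tumours with IgG, 274 ± 26.98 CPM in anti-CTLA-4-treated control tumours and 293 ± 18.1 CPM in control tumours with IgG (SD). Mars, for methionine, had the smallest differences, 0.01 under anti-CTLA-4 (95% interval -0.16 to 0.17) and -0.00 under IgG (95% interval -0.18 to 0.17). Lars, for leucine, was at 0.05 (adjusted p = 0.632) and -0.04 (adjusted p = 0.740), and Tars, for threonine, at -0.06 (adjusted p = 0.529) and -0.07 (adjusted p = 0.490). Exosc6 overlaps Aars on the same strand.

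Per kilobase of exon, Atf4 was the most abundant member in each group, at 98.1 ± 10.4 CPM per kb in LDHA-KD tumours with anti-CTLA-4, 88.9 ± 3.85 CPM per kb in LDHA-KD tumours with IgG, 126 ± 18.03 in control tumours with anti-CTLA-4 and 111 ± 26.8 in control tumours with IgG (SD). Gars and Nars took the next 2 places in each group, between 48.9 and 65.5 CPM per kb. At the other end, Pycr1 was at 1.35 ± 0.283, 1.03 ± 0.0965, 1.26 ± 0.192 and 1.26 ± 0.0542 CPM per kb in the same order of groups, the lowest member in the first 3. Slc7a11, at 2.49 ± 1.003, 1.64 ± 0.210, 1.29 ± 0.241 and 1.16 ± 0.169 CPM per kb, was the lowest in control tumours with IgG. This order depends on the length used, the union of all annotated exons, which was 13922 bases for Slc7a11 and 3935 for Pycr1. Before division by length, Slc7a11 averaged 16.1 CPM in control tumours with IgG and Pycr1 4.97 CPM. Between Pycr1 and Slc7a11 in LDHA-KD tumours with anti-CTLA-4 lay Cth, at 1.82 ± 0.794 CPM per kb.

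**Figure D3:**
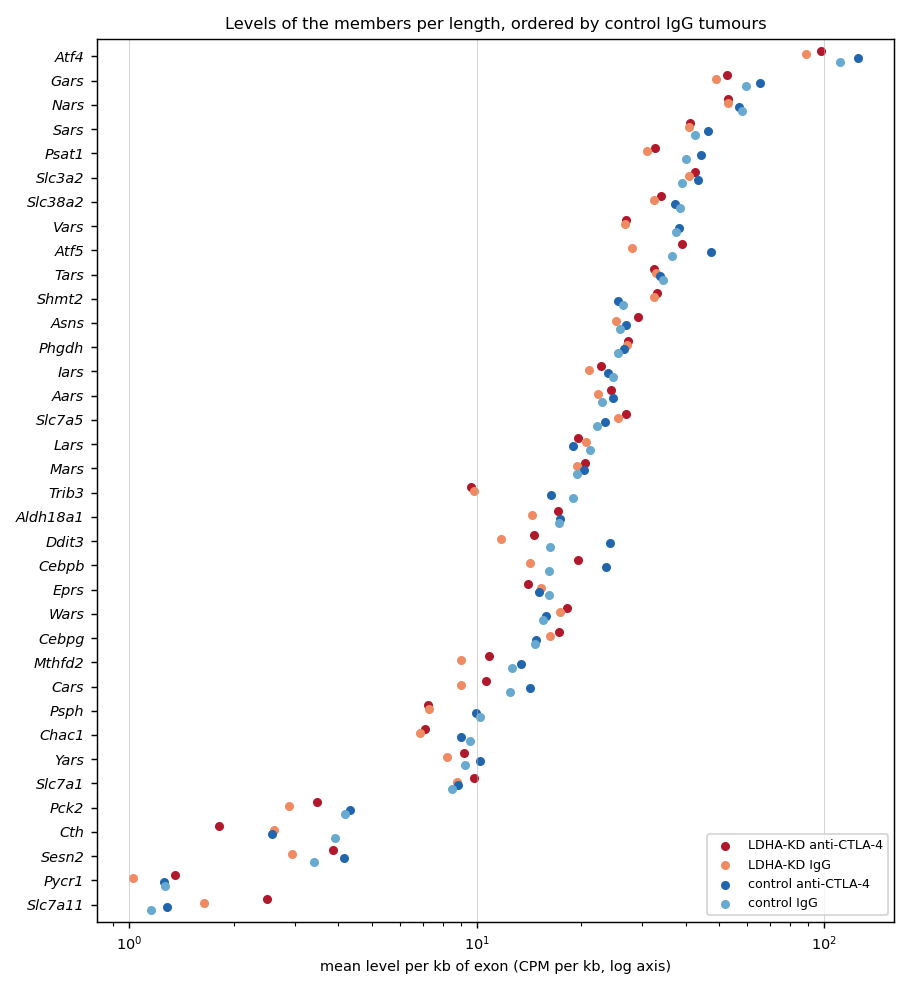
Mean level of each member per kilobase of exon (CPM per kb, log axis) in the 4 groups, ordered by control tumours with IgG from the highest at the top. Atf4 lies between 88.9 and 126 CPM per kb, and Pycr1 lies lowest in 3 of the 4 groups, at 1.03 to 1.35.

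The members' highest values gathered in a few libraries. LDHA-KD anti-CTLA-4 replicate 5 was the highest of its group for 25 of the 36 members, LDHA-KD IgG replicate 3 for 22, control anti-CTLA-4 replicate 3 for 18, and control IgG replicates 3 and 1 for 16 and 14. The members' summed level was 3683 ± 246 CPM in anti-CTLA-4-treated LDHA-KD tumours, 3494 ± 251 CPM in IgG-treated LDHA-KD tumours, 4036 ± 228 CPM in anti-CTLA-4-treated control tumours and 3889 ± 217 CPM in IgG-treated control tumours (SD). Control IgG replicate 1, on which several IgG calls turned, had the highest epithelial (5381 CPM) and hypoxia (4909 CPM) sums of its group. Its macrophage (1352 CPM), fibroblast (2820 CPM), endothelial (304 CPM) and T cell (14.05 CPM) sums were the lowest of that group. LDHA-KD anti-CTLA-4 replicates 3 and 5 had the lowest epithelial sums of theirs (2288 and 2478 CPM) and the highest hypoxia sums (3477 and 3465 CPM). The same libraries also had the highest neutrophil (1401 and 1231.5 CPM), fibroblast (7365 and 4894 CPM) and endothelial sums (340 and 295 CPM) of that group. The part of these differences in the members' spread was not tested.

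No amino acid stress gene was called between anti-CTLA-4 and IgG in either line. In LDHA-KD tumours 0 of 36 members were called between anti-CTLA-4 and IgG, and 0% of all genes were called higher and 0% lower by edgeR; 8 of 36 members had an unadjusted p under 0.05, beside 1987 of 16763 genes, and DESeq2 called 0 members and 50 genes of all. In control tumours 0 members were called, again against 0% of all genes in each direction; 3 of 36 members had an unadjusted p under 0.05, beside 1346 of 16763 genes, a share near the background, and DESeq2 called 0 members and 11 genes of all. The interaction called 0% of all genes in each direction as well. The members' median log2 fold change was 0.09 in LDHA-KD tumours and 0.06 in control tumours, beside -0.00 over all genes in each.

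The estimates were mostly above 0, for 29 of 36 members in LDHA-KD tumours and 24 of 36 in control tumours. Atf5 had the smallest p in both lines, with log2 fold changes of 0.48 (adjusted p = 0.293) in LDHA-KD tumours, where anti-CTLA-4 libraries were the higher in 92% of pairs, and 0.38 (adjusted p = 0.601) in control tumours, where 90% were. Slc7a11 was at 0.60 (adjusted p = 0.312) in LDHA-KD and 0.15 (adjusted p = 0.862) in control tumours. Pycr1 was at 0.40 (adjusted p = 0.312) and -0.01 (adjusted p = 0.998). In the interaction, Pycr1 had the smallest p of any member by edgeR (difference of log2 fold changes 0.40, unadjusted p = 0.0557, adjusted p = 0.9998). Ddit3 was at 0.33 (adjusted p = 0.541) and 0.57 (adjusted p = 0.601), Cebpb at 0.46 (adjusted p = 0.424) and 0.54 (adjusted p = 0.602), and Sesn2 at 0.39 (adjusted p = 0.417) and 0.29 (adjusted p = 0.695), in LDHA-KD and in control tumours. Cth had the lowest estimates, -0.52 (adjusted p = 0.498) and -0.60 (adjusted p = 0.628). Trib3, the member with the largest decrease in LDHA-KD tumours, was at -0.03 (95% interval -0.27 to 0.21) and -0.22 (95% interval -0.46 to 0.03), and Asns at 0.21 (95% interval -0.03 to 0.46) and 0.06 (95% interval -0.20 to 0.32). Mean hypoxia and T cell sums, given above, were larger with anti-CTLA-4 than with IgG in each line. Mean neutrophil sums were larger too, at 914 ± 390 against 516 ± 165 CPM (SD) in the LDHA-KD line. The control line gave neutrophil sums of 792 ± 281 against 400 ± 80.8 CPM. Mean epithelial sums were smaller under anti-CTLA-4 in each line. Fibroblast and endothelial means were larger in the LDHA-KD line and smaller in the control line. Macrophage sums differed little, at 3639 ± 181 against 3564 ± 139 CPM in the LDHA-KD line. In the control line they were 1891 ± 213 against 1964 ± 456 CPM. Of the 9 macrophage markers, 7 had estimates below 0 in each line, with medians of -0.24 in LDHA-KD and -0.10 in control tumours. The part of these sums in the members' estimates was not tested. The antibody comparisons share groups with the comparisons of the lines, so their values are not independent of those.

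**Figure D4:**
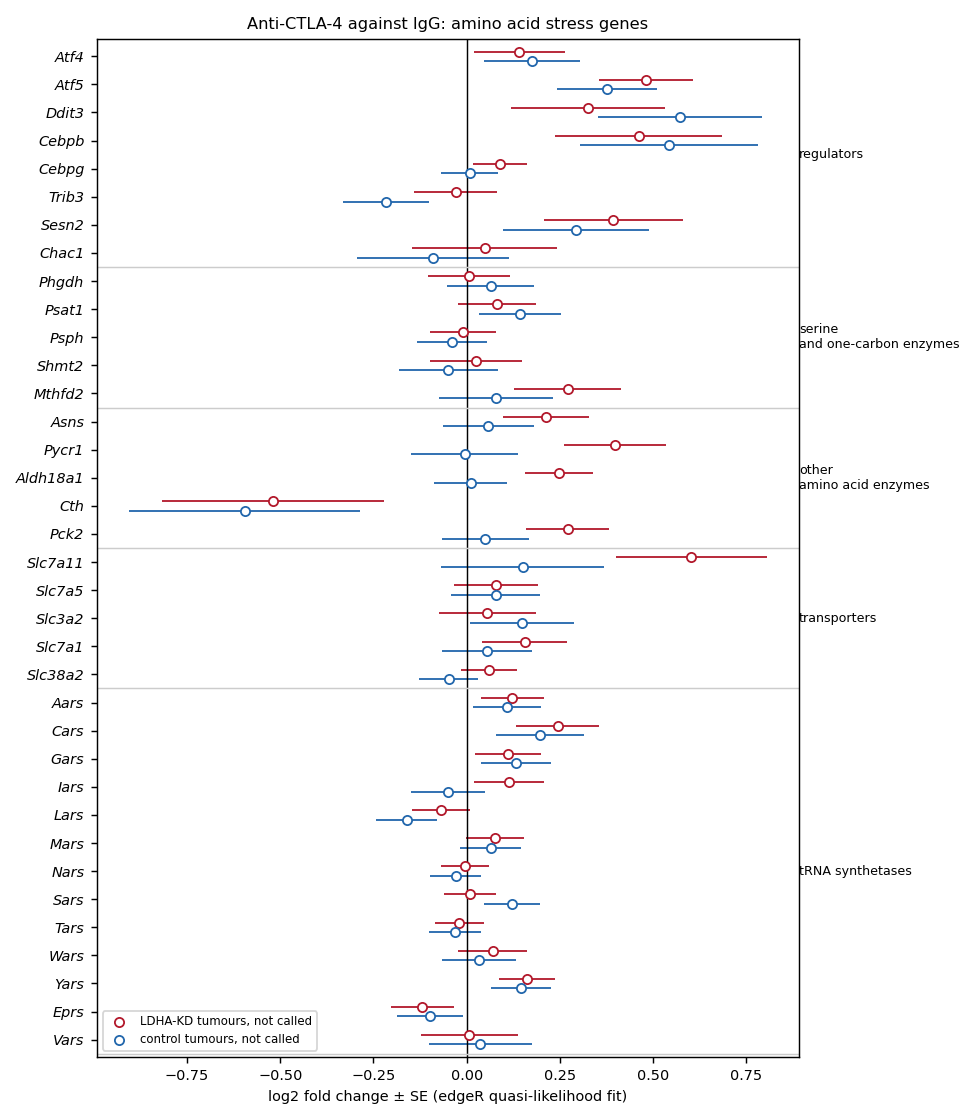
Log2 fold change of each member with anti-CTLA-4 against IgG (x axis, bars show SE) in LDHA-KD tumours (red) and control tumours (blue), grouped by role. Open points mark that no member was called; most lie to the right of 0, and Slc7a11 in LDHA-KD tumours is the farthest in that direction, at 0.60.

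Around the members, genes of eIF2α and its control were called in both directions. The list held 14 genes, for eIF2α, its kinases, its phosphatase and the exchange factor eIF2B, with Gcn1l1 and Impact. In LDHA-KD tumours 1 was higher and 3 were lower under anti-CTLA-4, and 1 was higher and 4 lower under IgG. The shares over all genes tested were 20.2% higher and 19.8% lower under anti-CTLA-4, and 16.8% and 17.5% under IgG. Eif2ak4, which encodes the amino acid sensor GCN2, was the gene that was higher (log2 fold change 0.27, SE 0.06, adjusted p = 0.00201) under anti-CTLA-4 and (log2 fold change 0.26, SE 0.07, adjusted p = 0.00537) under IgG. Subunits of eIF2B led the decreases, with Eif2b1 at -0.48 (adjusted p = 2.54e-05) and -0.40 (adjusted p = 0.000253) and Eif2b5 at -0.33 (adjusted p = 0.000168) and -0.28 (adjusted p = 0.00159), under anti-CTLA-4 and under IgG.

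Of 20 further genes linked to ATF4, 4 were higher and 6 lower under anti-CTLA-4, and 1 was higher and 5 lower under IgG. All genes tested gave 20.2% higher and 19.8% lower under anti-CTLA-4, and 16.8% and 17.5% under IgG. Another such gene, Gdf15, did not pass the filter. Ddit4, an mTORC1 inhibitor that hypoxia also induces and that was counted among the hypoxia genes too, was lower under anti-CTLA-4 (log2 fold change -0.92, SE 0.12, adjusted p = 1.31e-05) and under IgG (log2 fold change -1.12, SE 0.13, adjusted p = 2.85e-06). Vldlr, a lipoprotein receptor, was lower under IgG (log2 fold change -1.48, SE 0.25, adjusted p = 0.000166) and was at -0.56 (adjusted p = 0.0609) under anti-CTLA-4. Fgf21, a secreted stress hormone, was near the level of 3 counts in LDHA-KD tumours, at 0.0749 ± 0.0468 CPM in LDHA-KD tumours with anti-CTLA-4, 0.144 ± 0.0545 CPM in LDHA-KD tumours with IgG, 0.461 ± 0.0696 CPM in anti-CTLA-4-treated control tumours and 0.570 ± 0.0586 CPM in control tumours with IgG (SD), and was called lower under both antibodies. Jdp2, a bZIP protein, was higher under anti-CTLA-4 (log2 fold change 0.71, SE 0.12, adjusted p = 0.000160) and under IgG (log2 fold change 0.50, SE 0.13, adjusted p = 0.00605).

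In the other arms of the unfolded protein response, genes were called in both directions. Of 17 such genes, 5 were higher and 2 lower under anti-CTLA-4, and 3 were higher and 1 lower under IgG, beside the backgrounds given above. Ern1, the sensor IRE1α, was higher under anti-CTLA-4 (log2 fold change 0.89, SE 0.09, adjusted p = 6.37e-07) and under IgG (log2 fold change 0.67, SE 0.10, adjusted p = 3.54e-05), as was Xbp1, the factor whose mRNA it splices (0.40, adjusted p = 4.81e-05 and 0.35, adjusted p = 0.000425), and Edem1, a degradation factor that XBP1 controls (0.36, adjusted p = 4.37e-05 and 0.27, adjusted p = 0.00151). Macrophage and T cell markers, which immune cells add to the bulk RNA, were higher in the same comparisons, and their part was not tested.

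Neighbouring enzyme families gave counts in both directions. Beside them, all genes tested gave 20.2% higher and 19.8% lower under anti-CTLA-4, and 16.8% and 17.5% under IgG. Of 10 other cytosolic synthetase genes and cofactors, 0 were higher and 4 lower under anti-CTLA-4, and 2 were higher and 0 lower under IgG, with Qars at -0.28 (adjusted p = 0.00122) under anti-CTLA-4 and Kars at 0.26 (adjusted p = 0.00874) under IgG. Of 17 mitochondrial synthetases, 1 was higher and 3 lower under anti-CTLA-4, and 2 were higher and 1 lower under IgG. Of 12 other folate and one-carbon enzymes, 4 were higher and 2 lower under anti-CTLA-4, and 3 were higher and 2 lower under IgG. Tyms, thymidylate synthase, was lower at -0.65 (adjusted p = 0.000313) and -0.55 (adjusted p = 0.00208), and Mtrr, which reactivates methionine synthase, was higher at 0.44 (adjusted p = 0.000186) and 0.28 (adjusted p = 0.0127), under anti-CTLA-4 and under IgG.

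**Figure D5:**
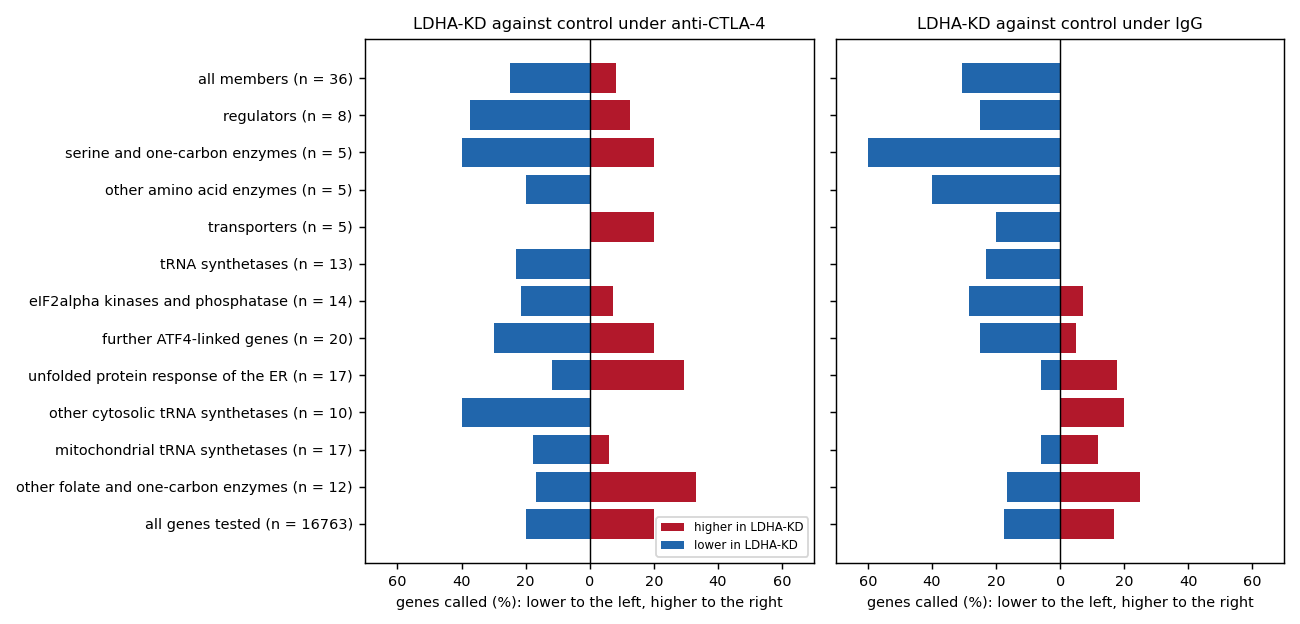
Percent of genes called higher (red, to the right) and lower (blue, to the left) in LDHA-KD against control tumours under anti-CTLA-4 (left panel) and under IgG (right panel), for the members, their roles, related gene lists and all genes tested. Under IgG 11 of 36 members are lower and 0 higher, while all genes divide nearly evenly, at 17.5% lower and 16.8% higher.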

How the data were processed

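Frozen tumours were extracted, and 500 ng of total RNA per sample went through poly(A) selection and strand-specific library preparation (8 PCR cycles), then paired-end sequencing, per the labels' protocols. The authors deposited raw counts per gene, not normalized, with gene symbols; the submitters' processing notes name HTSeq 0.5.3, Picard 1.124 and build mm10. The aligner, annotation release and strand setting are not given in the sources used here, so overlapping or antisense genes may share reads. Summary lines (reads outside genes, not unique, ambiguous or not aligned) held 26.2% to 28.7% of records and were left out; reads outside genes were 8.42% to 13.8%.

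The analysis used edgeR 4.0.16 in R 4.3.3: filterByExpr, TMM factors, 1 coefficient per group over 19 libraries, quasi-likelihood F tests and Benjamini-Hochberg adjustment over 16763 genes. SEs are the absolute log2 fold change divided by the square root of F. The procedure was tested on simulated counts. Members, roles and lists were chosen with earlier results of these data known. Values in every sample are given for members called in a comparison of the lines and among its 12 smallest p, for members called between antibodies, and for Atf4, Asns, Ddit3, Psat1 and Chac1; up to 3 genes of each other list, by smallest p, are named. Levels per kb use exon unions of GENCODE M21 on GRCm38, in which 46488 of 46983 identifiers and all 36 members were found. Libraries were compared within groups for copies; the lowest chi-square per gene was 5.40. Alternatives were RLE factors, DESeq2 1.42.0, voom in limma 3.58.1, no filter, only the groups compared, a replicate block, each library left out, 4 libraries left out, and library totals. The 95% intervals use the SE and the t distribution at the residual degrees of freedom. Reads carry no molecular identifiers, so the level of 3 counts covers counting error only.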

Additional observations from a re-analysis of the deposited data

Results flagged for a closer look

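In groups of 4 or 5 libraries, a single library lay farther from its group than Dixon's 95% limit in 11 of the 148 combinations of gene and group checked, where chance alone gives about 1 in 20, or 7.4. Among LDHA-KD tumours with IgG, replicate 4 was the high one for Atf5 (69.2 CPM, next 54.2), Cebpg (107 CPM, next 89.6) and Slc3a2 (197 CPM, next 141), and replicate 3 for Shmt2 (121 CPM, next 101), Mthfd2 (37.2 CPM, next 30.6) and Iars (128 CPM, next 109). In LDHA-KD tumours with anti-CTLA-4, replicate 5 was high for Shmt2 (126 CPM, next 101). Control anti-CTLA-4 replicate 3 was high for Psat1 (219.9 CPM, next 185) and Yars (67.4 CPM, next 60.1). Control IgG replicate 1 was high for Slc38a2 (364 CPM, next 336) and low for Phgdh (51.4 CPM, next 66.97). Without replicate 3 of the LDHA-KD IgG group, Iars was called lower under IgG (log2 fold change -0.28, adjusted p = 0.03999 by edgeR).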

How the results depend on the processing

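Of the 23 calls of members in the comparisons of the lines, 11 held in all 27 alternatives: Trib3, Psph, Pck2 and Cars under IgG, and Trib3, Ddit3, Psat1, Psph, Slc7a11, Cars and Vars under anti-CTLA-4. No called value changed sign in any alternative. Leaving out each library in turn gave 9 to 14 members called under anti-CTLA-4 (12 with all) and 5 to 13 under IgG (11 with all), the lowest without control anti-CTLA-4 replicate 1 and without control IgG replicate 1, and 0 throughout for both antibody comparisons and the interaction; the cause was not tested. The other alternatives gave 10 to 14 and 8 to 15 members, and DESeq2 called 13 and 12. Without replicates 3 and 5 of the anti-CTLA-4 group of each line, 11 and 15 members were called, while the count over all genes under anti-CTLA-4 was 4308 in place of 6711, with fewer samples. Library totals without scaling factors, an alternative chosen after seeing the data, gave 10 and 8 members and changed the split over all genes to 4445 higher and 2369 lower under anti-CTLA-4 (3390 and 3321 with TMM) and 3451 higher and 2251 lower under IgG (2814 and 2938). The labels do not say whether replicate numbers pair the samples. Same-numbered libraries of the 2 lines correlated between -0.006 and 0.245 under anti-CTLA-4 and between -0.111 and 0.091 under IgG. Between the antibodies, they correlated between -0.212 and 0.392 in control tumours and between -0.143 and 0.176 in LDHA-KD tumours. Differently numbered libraries were not compared, so these values do not settle the pairing. A replicate block called 14 members (3 higher, 11 lower) under anti-CTLA-4 and 12 (1 higher, 11 lower) under IgG. With the block Atf5 lost its call under IgG (adjusted p = 0.0630 by edgeR). Mthfd2 (0.0302) and Sars (0.0498) were then called under anti-CTLA-4, and Slc7a11 (0.0463) and Iars (0.0356) under IgG. The interaction needs all 4 groups, so no fit with fewer groups was made for it. Without LDHA-KD anti-CTLA-4 replicate 1, 1 gene of all was called between antibodies in LDHA-KD tumours. The lowest level of a member in any library was 3.04 CPM (Cth), against at most 0.0926 CPM for 3 counts.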

Other observations

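Stc2, a secreted glycoprotein counted among the further genes linked to ATF4 and picked out after its values were seen, had the largest log2 fold change of that list in LDHA-KD tumours given anti-CTLA-4 against IgG, 1.39 (SE 0.30, higher in 96% of pairs of libraries), yet its adjusted p was 0.293; in control tumours the value was 0.53 (adjusted p = 0.663), and the difference between the lines had an unadjusted p of 0.0627 by edgeR. The members of the serine pathway did not share a direction in LDHA-KD tumours: under IgG, Psat1, Psph and Mthfd2 were lower, while Shmt2 and Phgdh had positive estimates.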
